A study of Mus musculus with 6 samples.

Results

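Transcripts of 9 glycolysis enzymes (Pfkl, Aldoa, Tpi1, Gapdh, Pgk1, Pgam1, Eno1, Pkm and Ldha) and of Vegfa were examined in the medial ganglionic eminence (MGE), the ventral forebrain domain that produces many cortical interneurons, of mouse embryos at E13.5. These 10 genes were taken by symbol from the deposited comparison of double-mutant (dmut) with control libraries, which lists 17794 genes, and all 10 were found. The dmut embryos were Rac1 fl/fl and Rac3-/-, and control embryos were wild type at both genes. Both groups also carried the Nkx2.1Tg(Cre) transgene and 1 copy of the R26R-YFP reporter. Rac3 was therefore missing in every dmut cell, whereas Rac1 was targeted only where the Nkx2.1 transgene drives Cre, and cells outside that lineage keep Rac1. Each group had 3 libraries, and each library was made from MGEs pooled from 3 embryos. The protocol took whole pooled MGEs, so these are bulk measurements, in which fewer cells of a type and less RNA per cell cannot be told apart.

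Glycolysis splits glucose into pyruvate in the cytoplasm, and lactate dehydrogenase can reduce that pyruvate to lactate. When oxygen is short, hypoxia-inducible factors bind short promoter elements with the core ACGTG or GCGTG and raise transcription of most of these enzymes and of Vegfa, the secreted growth factor that guides vessel growth into the developing brain. Neural progenitors of the embryonic forebrain are known for high glycolysis, and glycolytic transcripts and Vegfa are often read together as signs of the hypoxic response.

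The libraries held 30363369, 29999684 and 26766556 total gene reads in dmut and 33647854, 34612095 and 31881697 in control. Rac3 averaged 0.193 ± 0.335 CPM in dmut and 17.7 ± 2.09 CPM in control (CPM is reads scaled to a fixed library total after TMM normalisation; SD, n = 3 each). Rac1 averaged 248 ± 26.0 CPM in dmut and 272 ± 2.77 CPM in control. Regional markers were abundant in both groups: Nkx2-1, which specifies the MGE, averaged 273 ± 17.2 CPM in dmut and 283 ± 28.4 CPM in control, and Lhx6, a factor of MGE-derived neurons, averaged 370.2 ± 57.3 CPM in dmut and 306 ± 33.2 CPM in control. Sox2, a progenitor marker, was listed at 0 in 5 of the 6 libraries. The 10 ventral progenitor markers that include Sox2 summed to 3645 to 4551 CPM in dmut and 3463 to 3682 CPM in control. The zeros of Sox2 are therefore not read as an absence of progenitors, and their cause was not tested. No total gene read value from 1 to 9 appears in the table, so a listed 0 stands for up to 9 reads. Library titles carry dates whose meaning is not given in the sources used here: dmut replicates 1 and 2 and control replicate 2 are dated 29 March, replicate 3 of both groups 4 May, and control replicate 1 23 March.

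The promoters of these genes show how unevenly the ACGTG core is spread over them. RefSeq windows (build GRCm38.p6, 250 bases before to 50 bases after the most upstream start listed for each gene) were matched for all 10 genes and searched on both strands. ACGTG was found in 4 of the 10 windows, those of Ldha, Pgk1, Gapdh and Pgam1, and in 19.6% of 27025 windows of all genes. ACGTG or GCGTG was found in 6 of the 10 windows and in 43.8% of all windows. The Ldha and Pgk1 windows are printed because they hold the most matches of ACGTG, and the Vegfa window as an example of the 4 windows that hold neither motif, the others being those of Aldoa, Tpi1 and Pkm. Capitals mark ACGTG and GCGTG on either strand, and each CACGTG counts as a match on both strands.
Ldha, chr7:46845554-46845853, plus strand: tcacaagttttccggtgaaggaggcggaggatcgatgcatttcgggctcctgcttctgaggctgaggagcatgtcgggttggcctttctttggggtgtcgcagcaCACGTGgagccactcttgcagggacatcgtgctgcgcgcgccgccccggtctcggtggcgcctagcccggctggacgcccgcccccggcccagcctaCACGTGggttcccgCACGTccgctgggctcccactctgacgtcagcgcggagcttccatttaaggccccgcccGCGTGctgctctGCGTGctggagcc
Pgk1, chrX:106186850-106187149, plus strand: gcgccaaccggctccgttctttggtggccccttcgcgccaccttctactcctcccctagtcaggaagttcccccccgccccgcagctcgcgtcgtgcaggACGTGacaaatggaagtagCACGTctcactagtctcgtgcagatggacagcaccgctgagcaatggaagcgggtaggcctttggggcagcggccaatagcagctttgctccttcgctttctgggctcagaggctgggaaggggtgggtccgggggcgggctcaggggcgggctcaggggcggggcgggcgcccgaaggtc
Vegfa, chr17:46032328-46032627, minus strand: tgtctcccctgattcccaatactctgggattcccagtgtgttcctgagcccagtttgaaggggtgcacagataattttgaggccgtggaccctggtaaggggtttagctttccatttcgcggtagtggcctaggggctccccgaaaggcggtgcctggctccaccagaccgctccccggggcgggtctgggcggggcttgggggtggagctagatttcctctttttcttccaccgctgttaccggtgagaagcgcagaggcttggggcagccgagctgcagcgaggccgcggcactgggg
The Ldha window held 5 matches of ACGTG at 3 places, and the Pgk1 window held 2, where 8.29% of all windows hold 2 or more. The Ldha window lies inside the deposited Ldha interval, whose first base is 46841475. The windows of Gapdh, Aldoa and Pfkl also lie wholly inside the deposited intervals of those genes. Most of the Tpi1 window and most of the Pkm window does as well. A match describes letters only, and elements outside these windows were not searched.

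Most of the enzymes stood somewhat higher in dmut than in control, and Vegfa stood lower, but no member passed the test over all genes. In total gene reads, the 9 enzymes had log2 folds of dmut over control from 0.14 to 0.56 with a median of 0.33, where the median over all 15960 genes tested was -0.02, and Vegfa had a log2 fold of -0.43. At an adjusted p of 0.05, 0 of the 10 members were called by edgeR's quasi-likelihood test, where 0.482% of all genes tested were called. At an unadjusted p under 0.05, 6 of the 9 enzymes stood higher in dmut, where 11.1% of all genes tested did, and Vegfa stood lower, where 10.1% did. The count of 6 became 2 without control replicate 2 and 0 with library size in place of TMM scaling, and Vegfa had an unadjusted p above 0.05 without control replicate 1 and without dmut replicate 1 or 2. Of the enzymes, 7 were higher in every dmut library than in every control library, where 13.6% of all genes tested were, and Vegfa was lower in every dmut library, where 14.9% were. The members were chosen with earlier results of these data known, so these shares give scale and are no test of the set.

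**Figure D1:**
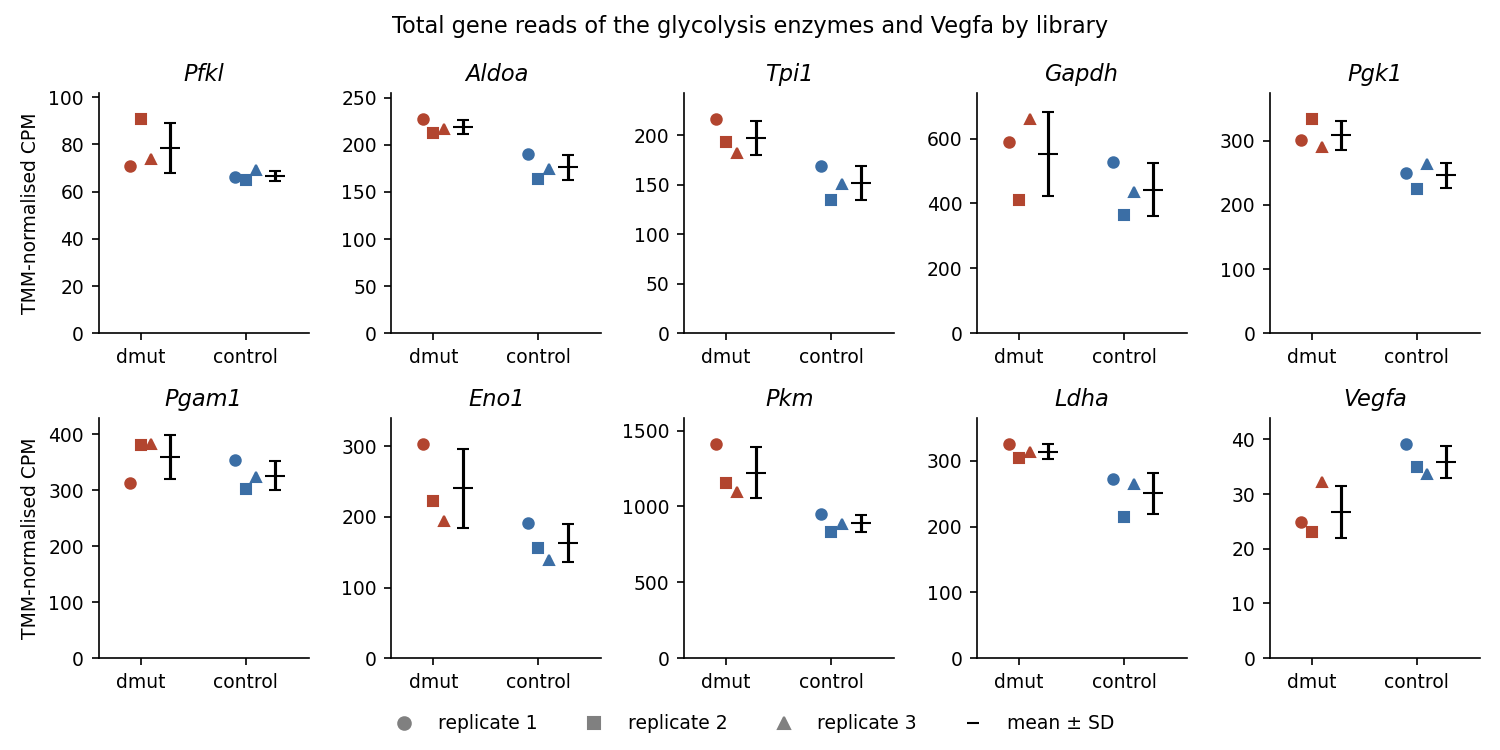
TMM-normalised CPM of total gene reads (vertical axes, from 0) in each dmut and control library for the 10 genes in the order of glycolysis, with Vegfa last. Points are libraries, with shapes for replicate numbers, and black bars are mean ± SD (n = 3). The groups overlap for Gapdh and Pgam1, and Vegfa is the gene whose dmut libraries all lie below control.

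Among the enzymes of the preparatory steps, in which sugar is phosphorylated and split, the changes were modest. Pfkl, the liver-type subunit of phosphofructokinase, which commits sugar to glycolysis (chromosome 10, 77986947 to 78010083), had 71.0, 90.7 and 73.7 CPM in the dmut libraries, against 66.0, 64.9 and 69.2 CPM in control. The groups did not overlap, but the highest dmut library stood well apart from its fellows, which lay just above control. The log2 fold of Pfkl was 0.23 ± 0.11 (SE; edgeR quasi-likelihood test, adjusted p = 0.290), and 0.12 without dmut replicate 2. Aldoa, the aldolase that splits fructose bisphosphate (chromosome 7, 126795234 to 126800751), had 227, 213 and 217 CPM in the dmut libraries, against 189.7, 164 and 175 CPM in control. Every dmut library was above every control library and the dmut libraries lay close together, for a log2 fold of 0.31 ± 0.09 (SE; edgeR, adjusted p = 0.116). Tpi1, which interconverts the triose phosphates so that both reach the later steps (chromosome 6, 124810586 to 124814296), had 216, 193 and 182 CPM in the dmut libraries, against 169, 135 and 151 CPM in control. These groups were also apart, with a log2 fold of 0.38 ± 0.12 (SE; edgeR, adjusted p = 0.128).

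Gapdh, Pgk1 and Pgam1 act in the middle steps and had the lowest shares of unique reads among the 10 genes. Gapdh, the dehydrogenase that makes NADH and a common reference gene (chromosome 6, 125161853 to 125166467), had 589, 409.6 and 659 CPM in the dmut libraries, against 527, 364 and 434 CPM in control. The groups overlapped broadly, since dmut replicate 2 lay below 2 control libraries, and the log2 fold was 0.32 ± 0.21 (SE; edgeR, adjusted p = 0.431). It was 0.50 without dmut replicate 2, 0.17 without dmut replicate 3 and 0.20 without control replicate 2. Pgk1, the first ATP-yielding kinase (chromosome X, 106187100 to 106203699), had 300.2, 333 and 291 CPM in the dmut libraries, against 249, 224 and 264 CPM in control. The Pgk1 groups did not overlap, with a log2 fold of 0.33 ± 0.11 (SE; edgeR, adjusted p = 0.141). Pgam1, the phosphoglycerate mutase (chromosome 19, 41911871 to 41918664), had 313, 381 and 383 CPM in the dmut libraries, against 353, 302 and 323 CPM in control. Its groups overlapped, with dmut replicate 1 below 2 control libraries, and its log2 fold of 0.14 ± 0.12 was the smallest of the 9 enzymes (SE; edgeR, adjusted p = 0.569). It was 0.23 without dmut replicate 1, 0.093 without dmut replicate 2, 0.084 without dmut replicate 3 and 0.086 without control replicate 2.

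Eno1, Pkm and Ldha act in the last steps. Eno1, the alpha enolase (chromosome 4, 150236721 to 150248879), had 303, 223 and 195 CPM in the dmut libraries, against 192, 156 and 139 CPM in control. The lowest dmut library lay just above the highest control library, and dmut replicate 1 stood apart, for a log2 fold of 0.56 ± 0.19 (SE; edgeR, adjusted p = 0.150), which was 0.36 without that library. Pkm, the pyruvate kinase that makes the last ATP of the pathway (chromosome 9, 59656368 to 59679375), had 1412, 1156 and 1095 CPM in the dmut libraries, against 949, 832 and 882 CPM in control. Every dmut library was well above control, with a log2 fold of 0.46 ± 0.13 (SE; edgeR, adjusted p = 0.112, the lowest among the 10 genes). Ldha, the A subunit of lactate dehydrogenase (chromosome 7, 46841475 to 46855627), had 326, 304 and 313 CPM in the dmut libraries, against 273, 215 and 264 CPM in control. The groups were apart and the dmut libraries lay close together, with a log2 fold of 0.33 ± 0.12 (SE; edgeR, adjusted p = 0.166).

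Vegfa ran the other way. Vegfa (chromosome 17, 46016993 to 46032377) had 24.9, 23.1 and 32.2 CPM in the dmut libraries, against 39.1, 34.9 and 33.6 CPM in control. All dmut libraries were below control, but dmut replicate 3 was close to the lowest control library, its partner by title date. The log2 fold was -0.43 ± 0.15 (SE; edgeR, adjusted p = 0.157). Between the libraries of 4 May the log2 difference of Vegfa was -0.06, and among those of 29 March it was -0.54. The enzymes had median log2 differences of 0.27 on 4 May and 0.49 on 29 March, and all 9 were positive within both dates. Each date rests on a single control library: dmut replicate 3 against control replicate 3 on 4 May, and dmut replicates 1 and 2 against control replicate 2 on 29 March. The share of all genes positive within each date is not given, so the count of 9 is a description without scale. The libraries of 29 March include control replicate 2, which was the lowest control library for 8 of the 9 enzymes.

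The test used changed how many members were called. DESeq2 called 6 of the 9 enzymes (Aldoa, Tpi1, Pgk1, Eno1, Pkm and Ldha) higher in dmut at adjusted p-values from 0.00370 for Pkm to 0.0397 for Eno1, while it called 5.93% of all genes higher. Vegfa was not called by DESeq2 (adjusted p = 0.106), which called 4.62% of all genes lower. The limma-voom test called 0 of the 10 members, with a lowest adjusted p of 0.0871, and 0.796% of all genes. In the authors' deposited table, whose test is labelled EDGE, Pkm had an adjusted p of 0.378 and the other 9 members an adjusted p of 1, and its signed folds were between 1.07 for Pgam1 and 1.44 for Eno1 for the enzymes and -1.32 for Vegfa.

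**Figure D2:**
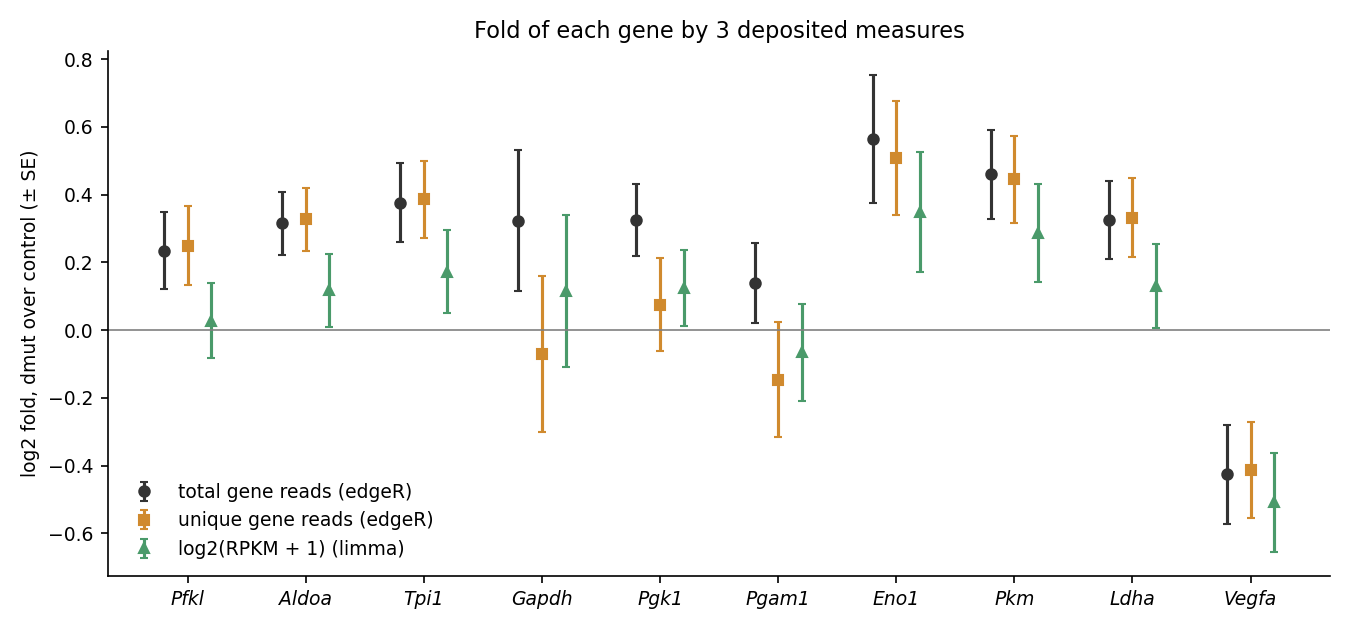
Log2 fold of dmut over control (vertical axis) with its SE for each gene by total gene reads, unique gene reads and log2(RPKM + 1). Gapdh and Pgam1 lie above 0 by total gene reads and below 0 by unique gene reads, while Vegfa lies below 0 by all 3 measures.

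Total and unique gene reads were then compared, since the table gives both for each library. Unique gene reads left 6 members as they were: Aldoa, Tpi1, Pfkl, Pkm, Ldha and Vegfa had at least 90.1% unique reads in every library, and their log2 folds in unique reads were 0.33, 0.39, 0.25, 0.44, 0.33 and -0.41. Pgk1, Gapdh and Pgam1 kept few of their reads. The unique share of Pgk1 was 6.17%, 7.62% and 7.16% in the dmut libraries, against 8.41%, 8.80% and 8.08% in control. For Gapdh it was 8.98%, 8.40% and 11.0% in dmut, against 10.2%, 15.4% and 13.7% in control. For Pgam1 it was 5.79%, 5.88% and 7.52% in dmut, against 7.97%, 7.92% and 7.83% in control. The median share over 11970 genes with a mean of at least 100 reads was 99.3%, far above that of these enzymes.

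In unique gene reads the log2 fold of Pgk1 was 0.08 ± 0.14, that of Gapdh -0.07 ± 0.23 and that of Pgam1 -0.15 ± 0.17 (SE), and 0 of the 10 members were called, where 0.588% of 15297 genes were (edgeR, adjusted p-values from 0.106 to 0.899). By unique CPM, 6 of the 9 enzymes were higher in every dmut library, where 13.5% of all genes were, and Vegfa was lower in every dmut library, where 14.5% were. The enzyme that no longer separated the groups was Pgk1, with 22.0, 30.0 and 24.4 unique CPM in the dmut libraries, against 24.6, 23.1 and 24.8 unique CPM in control. The unique shares of Pgk1 and Pgam1 were lower in every dmut library than in every control library. Of those 11970 genes, 7.10% had such a pattern and a smaller percentage had the opposite pattern. The exact permutation test gave p = 0.1 for Pgk1 and for Pgam1, the smallest that 3 against 3 libraries allow (two-sided, Benjamini-Hochberg adjusted over the 10 members 0.5). Over all genes, unique reads made up 82.6%, 84.4% and 85.4% of reads in the dmut libraries, against 85.5%, 86.6% and 86.5% in control. This pooled share also depends on how reads are spread over genes, so it cannot show whether the share fell within other genes. The part of the lower pooled share in the values of these enzymes was not tested.

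**Figure D3:**
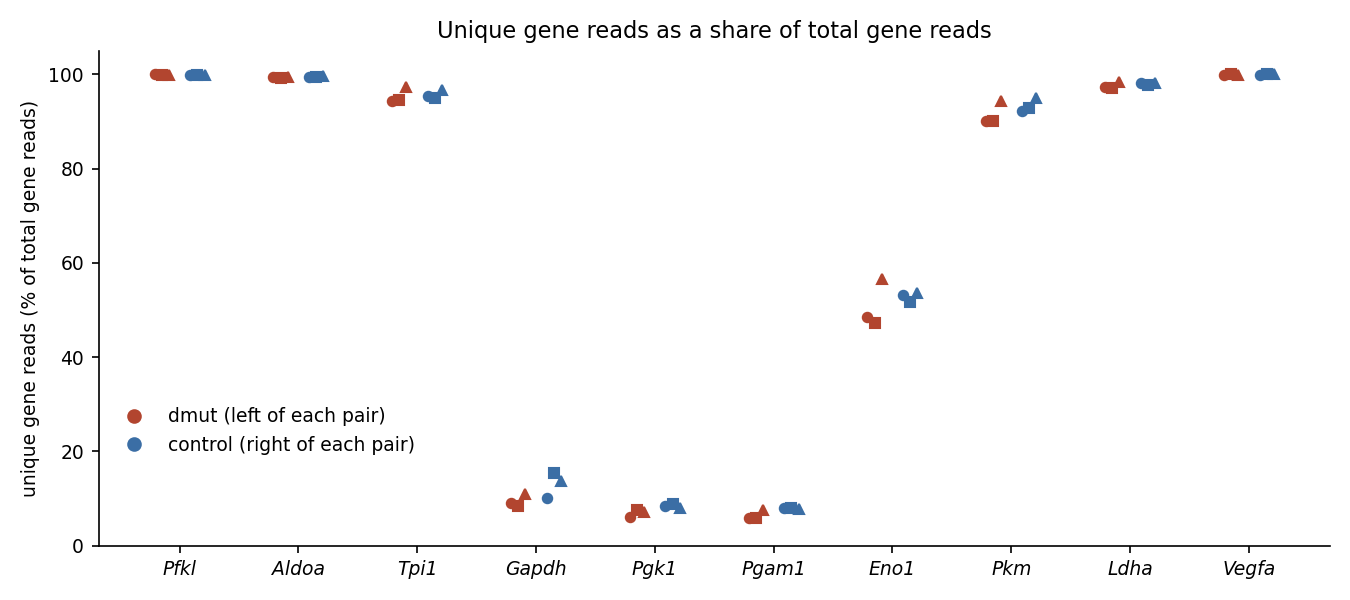
Unique gene reads as a percent of total gene reads (vertical axis) for each gene, with the dmut libraries left of the control libraries. Pgk1, Gapdh and Pgam1 lie between 5.79% and 15.4%, Eno1 near the middle of the axis, and the other genes at 90.1% or more.

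The annotation accounts for where such reads can also match. Coding sequences were compared with all GENCODE M21 transcripts, and stretches of at least 100 bases at 95% identity or more were counted on the same strand. Gapdh had near-identical stretches in 74 other genes, 72 of them pseudogenes, and 42 of these genes are in the deposited table. Pgk1 had 4, of which Pgk1-rs7 and Gm5537 are in the table, Pgam1 had Pgam1-ps2, and Aldoa, Pfkl and Vegfa had none. Ldha had 4, Eno1 had 3, and Tpi1 and Pkm had 1 each, and those of Ldha, Tpi1 and Pkm are not in the table. The stretches covered 92.0% of the Ldha coding length and 100% of that of Pkm, although both kept at least 90.1% unique reads. Few reads were assigned to most of the copies in the table. Pgk1-rs7 and Gm5537 together held 81, 37 and 33 total gene reads in the dmut libraries, against 31, 49 and 38 in control, and Pgam1-ps2 held 186, 35 and 28 in dmut, against 117, 87 and 73 in control. Of the reads on Gapdh and its listed copies, 89.5%, 90.8% and 91.0% were assigned to Gapdh in dmut, against 87.0%, 90.5% and 89.6% in control.

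Eno1 was the exception, because its copy Gm4735 held more reads than Eno1 itself in every library. Gm4735, annotated as a processed pseudogene (chromosome 2, 80837141 to 80838442 in GENCODE M21), differs from Eno1 at 5 of 1302 coding bases. Counted from the first coding base, with the Eno1 base first, these are T726C, T816G, A1056G, T1224C and C1233T. The stretch of coding bases 711 to 830 is shown because a read that lies within it can be told apart between the loci only by the 2 bases in capitals.
Eno1: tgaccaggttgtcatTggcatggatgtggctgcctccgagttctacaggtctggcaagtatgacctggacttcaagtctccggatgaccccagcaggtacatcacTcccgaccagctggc
Gm4735: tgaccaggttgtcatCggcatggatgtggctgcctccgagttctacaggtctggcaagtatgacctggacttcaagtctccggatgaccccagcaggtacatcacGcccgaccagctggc
Gm4735 had 8440, 9317 and 7778 total gene reads in the dmut libraries, against 8599, 8826 and 11549 in control. Eno1 had 8362, 6074 and 5100 total gene reads in the dmut libraries, against 6993, 5851 and 4673 in control. Control replicate 3, with the fewest reads on Eno1, had the most on Gm4735.

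Unique gene reads were also split between the 2 loci. Eno1 held 4063, 2868 and 2883 unique reads in dmut, against 3725, 3023 and 2504 in control, and Gm4735 held 1904, 2068 and 2309 in dmut, against 2308, 2198 and 3157 in control. Eno1 thus took 68.1%, 58.1% and 55.5% of the unique reads of the pair in dmut, against 61.7%, 57.9% and 44.2% in control, and these groups overlap. Eno1b and Gm5855, also near-identical to Eno1 (99.39% and 96.31% over 1302 coding bases), are not in the deposited table. Reads on them could not be counted. Summed over Eno1 and Gm4735, the level was 609, 564 and 491 CPM in the dmut libraries, against 427, 392 and 483 CPM in control. The groups still did not overlap, but dmut replicate 3 and control replicate 3 became nearly equal, and the log2 fold was 0.35 ± 0.13 (SE; edgeR, adjusted p = 0.173) in place of 0.56. The same sum, an alternative chosen after these values were seen, gave Gapdh a log2 fold of 0.30 and left those of the other 7 enzymes the same to 2 decimals.

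**Figure D4:**
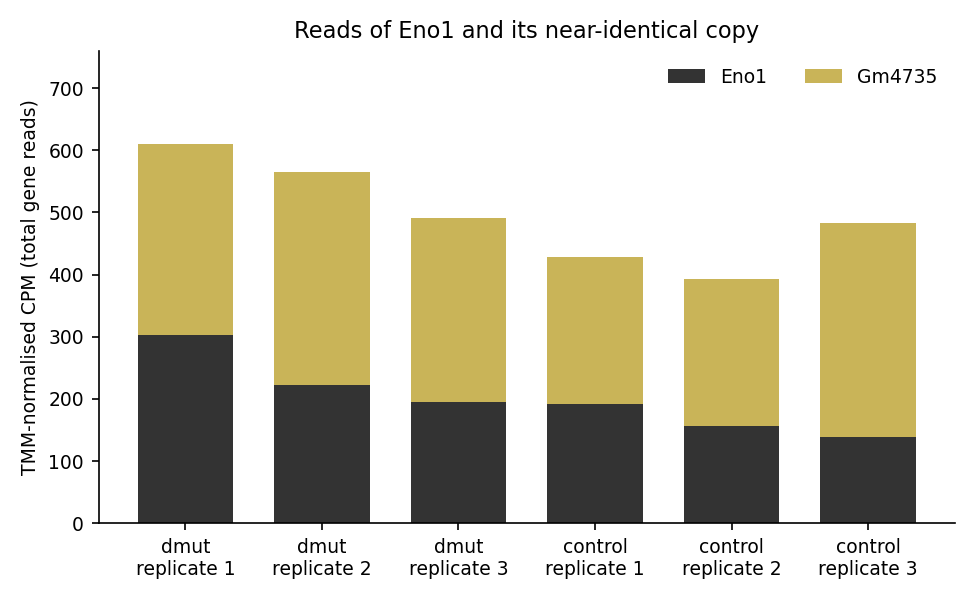
TMM-normalised CPM (vertical axis, from 0) of total gene reads on Eno1 and on its near-identical copy Gm4735, stacked, in each dmut and control library. The sum is 491 CPM in dmut replicate 3 and 483 CPM in control replicate 3, although their Eno1 parts are 195 and 139 CPM.

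RPKM, the authors' unit per length and library total, gave the order of levels among the genes. In dmut the mean RPKM was 430.4 ± 50.7 for Pkm, 200.3 ± 53.3 for Gapdh, 182 ± 24.8 for Pgam1, 127 ± 6.44 for Pgk1, 97.4 ± 5.14 for Ldha, 82.3 ± 5.37 for Tpi1, 73.4 ± 3.63 for Aldoa, 41.1 ± 8.58 for Eno1, 16.3 ± 2.03 for Pfkl and 5.50 ± 1.24 for Vegfa (SD, n = 3). In this order, Gapdh and Pgam1 were the only neighbours whose dmut libraries overlapped. In control, Pkm was at 352 ± 22.6 RPKM and Vegfa at 8.17 ± 0.637 RPKM, with Pgam1 at 189.7 ± 15.9 RPKM just ahead of Gapdh at 182 ± 34.0 RPKM (SD, n = 3). Control libraries overlapped between Pgam1 and Gapdh, between Ldha and Tpi1 and between Tpi1 and Aldoa. The place of Eno1, eighth in both groups, excludes the reads on Gm4735.

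RPKM narrowed the enzymes' difference and kept that of Vegfa. On the log2(RPKM + 1) scale the median fold of the 9 enzymes was 0.12, where the median over all 11590 genes tested was -0.13, and Pkm was the one enzyme higher in every dmut library, where 5.78% of all genes were. Vegfa had 4.93, 4.65 and 6.93 RPKM in the dmut libraries, against 8.77, 8.24 and 7.50 RPKM in control. Its groups were apart, as were those of the 28.3% of genes lower in every dmut library, with a log2 fold of -0.51 ± 0.15 (SE; limma, adjusted p = 0.0981), and 0 of the 10 members were called, where 0.638% of all genes were. RPKM divides by the library's total, without the TMM factors of 0.909 to 0.979 in dmut and 1.05 to 1.08 in control. After libraries were set to equal median log2(RPKM + 1), the enzymes' median was 0.27.

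Other genes of glycolysis did not share one direction. Of 17 further glycolysis enzymes tested, 0 were called. In every dmut library 4 were higher and 3 lower, where 13.6% and 14.9% of all genes tested were. The 4 higher genes, Hk1, Gpi1, Pfkm and Ldhb, averaged 55.0, 170, 79.9 and 202 CPM in control. The 3 lower genes, Pfkp, Hk3 and Pklr, averaged 12.6, 1.23 and 1.62 CPM in control. Summed over the 17 enzymes, the level was 846 to 943 CPM in dmut and 733 to 758 CPM in control. The median log2 fold of the 17 was 0.07, or -0.13 when scaled by library size alone, where the median over all genes was -0.23. By that scaling the medians of the 9 enzymes with Vegfa, of the tricarboxylic acid cycle and of the pentose phosphate pathway stayed above 0, at 0.12, 0.063 and 0.10, and those of the other lists of the pathway, given next, lay between -0.21 and -0.19. Ldhb, the B subunit of lactate dehydrogenase, had 250.1, 246 and 251 CPM in the dmut libraries, against 198, 203 and 205 CPM in control (log2 fold 0.30 ± 0.08 SE; edgeR, adjusted p = 0.0989). Pfkm, the muscle-type subunit of phosphofructokinase, had a log2 fold of 0.37 ± 0.11 (SE). Pfkp, the platelet-type subunit, had 7.51, 5.28 and 7.52 CPM in the dmut libraries, against 12.6, 12.9 and 12.4 CPM in control. The control libraries of Pfkp lay close together and well above dmut (log2 fold -0.90 ± 0.17 SE; edgeR, adjusted p = 0.0701). Among 19 genes of glycolytic control and transport, 0 were called and the median log2 fold was 0.01. Pfkfb2 and Pfkfb4, which set the level of the phosphofructokinase activator fructose 2,6-bisphosphate, had log2 folds of -0.66 and -0.59, and Bsg, a partner of lactate transporters, had one of 0.56 (edgeR, adjusted p = 0.0576, 0.0784 and 0.109).

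The rest of the hypoxia response was centred near the median of all genes. The list of 10 genes that holds the hypoxia-inducible factors, their hydroxylases and Vhl had 0 calls and a median log2 fold of 0.01. Egln1, an oxygen-sensing prolyl hydroxylase, had a log2 fold of 0.20, Arnt2, a partner subunit of the factors, one of -0.23, and Egln3, a further hydroxylase, one of -0.48 (edgeR, adjusted p = 0.204, 0.220 and 0.433). Among 23 other hypoxia targets, 0 were called and the median was -0.01. In every dmut library 4 of them were higher and 6 lower, where 13.6% and 14.9% of all genes tested were. These targets include Egln3, and also Pdk1 of the list of glycolytic control, so the lists share genes. Tfrc, the transferrin receptor, had 46.4, 63.2 and 71.1 CPM in the dmut libraries, against 86.9, 106 and 109 CPM in control. Its groups were apart (log2 fold -0.74 ± 0.17 SE; edgeR, adjusted p = 0.0856), as were those of Ero1l, an oxidase of the endoplasmic reticulum, at -0.57, and of Ddit4, an inhibitor of mTORC1, at 0.45. Car9, a carbonic anhydrase strongly induced by hypoxia in many cells, was listed at 0 in every dmut library and in 2 control libraries, with 10 reads in control replicate 3.

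The genes closest to Vegfa in function had a median near that of all genes. Of 9 further Vegf ligands and receptors, 0 were called, and the median log2 fold was 0.01. Figf, which encodes the ligand VEGF-D, was listed at 0 in all dmut libraries, against 28, 31 and 14 total gene reads in control. With 9 reads counted for each listed 0, it was at least 2.01-fold lower in dmut, and the list's median is the same at that bound. Vegfb, a ligand of the receptor Flt1, had 52.5, 33.7 and 39.8 CPM in the dmut libraries, against 34.3, 27.2 and 23.6 CPM in control, and these overlapped (edgeR, adjusted p = 0.165). Flt1 had a log2 fold of 0.25 (edgeR, adjusted p = 0.325), and Kdr, the main signalling receptor for Vegfa on endothelial cells, averaged 35.5 ± 6.63 CPM in dmut and 35.1 ± 4.55 CPM in control (SD, n = 3 each).

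Pathways next to glycolysis had medians near that of the 9 enzymes. Of 23 genes of pyruvate dehydrogenase and the tricarboxylic acid cycle, 0 were called and 22 had positive log2 folds, with a median of 0.26. Of the 23, 12 were higher in every dmut library, where 13.6% of all genes tested were. Sdhc, a membrane subunit of succinate dehydrogenase, had 121, 114 and 94.7 CPM in the dmut libraries, against 77.2, 63.9 and 73.5 CPM in control (log2 fold 0.62 ± 0.12 SE; edgeR, adjusted p = 0.0751). Mdh2, the mitochondrial malate dehydrogenase, and Dlat, a core subunit of pyruvate dehydrogenase, had log2 folds of 0.41 and 0.35, also with groups apart. The 8 genes of the pentose phosphate pathway, which branches from glycolysis to make NADPH and ribose, had 0 calls, 7 positive log2 folds and a median of 0.30. Pgls, the lactonase of that pathway, had 58.0, 34.3 and 39.8 CPM in the dmut libraries, against 23.6, 21.2 and 26.9 CPM in control (log2 fold 0.88 ± 0.20 SE; edgeR, adjusted p = 0.0862). Taldo1 and Pgd, further enzymes of the same pathway, had log2 folds of 0.51 and 0.33. Over all genes tested, 47.3% had a positive log2 fold.

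**Figure D5:**
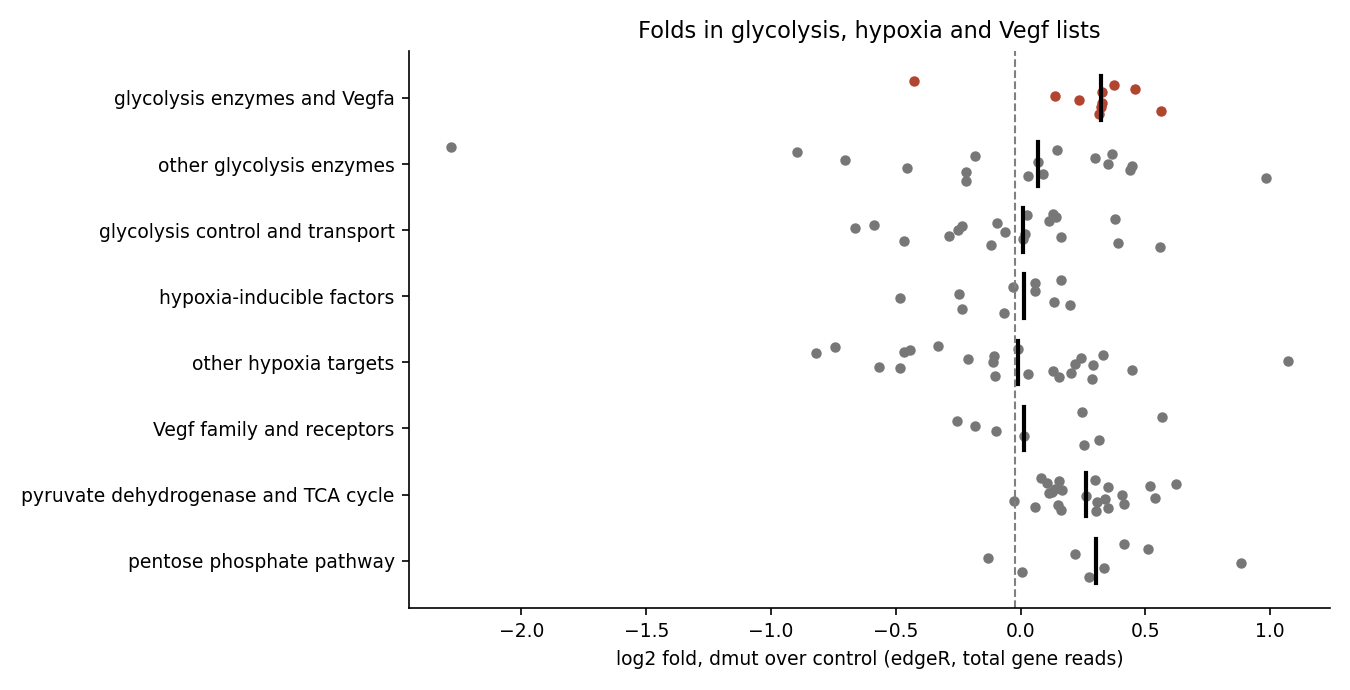
Log2 folds of dmut over control (horizontal axis, edgeR on total gene reads) of single genes in each list, with the list's median as a black bar and the median of all genes as a dashed line. Figf is not drawn because it was listed at 0 in dmut. The medians of the tricarboxylic acid cycle and pentose phosphate lists lie at 0.26 and 0.30, and those of the other non-member lists between -0.01 and 0.07.

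Across the 6 libraries, the mean profile of the 9 enzymes stood 0.23, 0.14 and 0.13 above its average on the log2 scale in the dmut libraries, against -0.04, -0.30 and -0.17 in control. All dmut libraries lay above all control libraries, and control replicate 1 was the nearest to them. By Pearson's r over the 6 libraries, the genes most like this profile were Hagh, a glyoxalase, Bckdha, a subunit of branched-chain ketoacid dehydrogenase, Lsm6, an RNA-binding protein, Eif5a, a translation factor, and Atp6v1d, a subunit of the vacuolar proton pump (r from 0.993 to 0.997). The genes most like Vegfa were Brpf1, a chromatin reader, Kctd6, Ttll3, Atf4, a transcription factor of the integrated stress response, and Ypel4 (r from 0.987 to 0.997). With log2(RPKM + 1) in place of CPM, 0 of the first 5 and 1 of the second 5, Brpf1, remained in the top 5. These values describe 6 libraries that share depth and genotype differences.

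Among the lists of cell type markers, only that of postmitotic MGE neurons held called genes. Of 9 markers of postmitotic MGE neurons, 2 passed the test and rose in dmut, namely Maf and Sst (log2 folds 1.69 and 2.20; edgeR, adjusted p = 0.0318 and 0.0413). Both calls were lost without any one control library and without dmut replicate 3, and that of Sst without dmut replicate 1 (edgeR, adjusted p from 0.0672 to 0.223), with the direction kept. Among those that did not pass, Tubb3, a tubulin of all young neurons, averaged 1408 ± 232 CPM in dmut and 750 ± 166 CPM in control, and Erbb4, a neuregulin receptor, averaged 145 ± 31.3 CPM in dmut and 87.6 ± 16.9 CPM in control (SD, n = 3 each). Gad1 and Gad2, the enzymes that make GABA, had log2 folds of -0.75 and -0.17, with Gad1 lower in every dmut library (edgeR, adjusted p = 0.0827 and 0.415), and Dcx had one of -0.07. The summed level of these 9 markers, of which Tubb3 was the largest part in dmut, was 2904 to 3334 CPM in the dmut libraries and 2245 to 2549 CPM in control. In the ventral progenitor list 0 of 9 tested genes were called, with sums of 3645 to 4551 CPM in dmut and 3463 to 3682 CPM in control. The endothelial list, whose cells respond to Vegfa, had 0 calls of 12 and sums of 265 to 302 CPM in dmut and 239 to 257 CPM in control. The microglial list had 0 calls of 10 and sums of 97.9 to 125 CPM in dmut and 75.4 to 92.2 CPM in control, and the list of mesenchyme and pericytes had 0 of 8 and sums of 76.0 to 104 CPM in dmut and 106 to 125 CPM in control. Erythroid markers, 0 called of 10, summed to 9798 to 35608 CPM in dmut and 11899 to 20588 CPM in control, with the highest value in dmut replicate 1, and cortical excitatory markers, 0 called of 7, to 8.09 to 82.8 CPM in dmut and 16.8 to 49.6 CPM in control. Lum, Neurog2 and Slc17a7 were listed at 0 in some libraries. The part of cell composition in the values of the enzymes and Vegfa was not tested.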

How the data were processed

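Per the labels' protocols, total RNA from pooled MGEs went through column purification and oligo(dT) selection of mRNA before barcoded Ion Torrent library construction. The submitters' processing notes name GRCm38 and mm10. Which aligner and counting program made the table is not given in the sources used here. The deposited columns, per the file headers, are whole-number counts (total and unique gene reads) and RPKM for each library. The deposited p-value, adjusted p-value and signed fold change, a score with no value between -1 and 1, are the authors'.

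Total gene reads of all 6 libraries were tested with the quasi-likelihood F test of edgeR 4.0.16 under R 4.3.3, with TMM scaling, the standard expression filter, no covariate, and Benjamini-Hochberg adjustment over all genes (called at 0.05). It was repeated on unique gene reads. RPKM was tested with limma 3.58.1 on log2(RPKM + 1) for genes with a mean RPKM of at least 1; these folds understate changes of low genes. Alternatives were DESeq2 1.42.0, limma-voom, other scalings, filters and pseudocounts, removal of a length and GC trend, each library left out, replicate number or title date as a block, comparisons within dates, and, chosen after seeing the data, summing each gene with its near-identical copies. The edgeR fit with and without the replicate block, DESeq2, limma-voom and the RPKM fit were run on simulated data. The planted changes were larger than those of the members. The date block, unique shares, sums with copies and likeness were not simulated.

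Depth ranged from 26766556 to 34612095 total gene reads. No 2 libraries of a group agreed within sampling noise. The labels do not say that pools came from separate litters, so p-values measure the spread between these pools. Symbols matched GENCODE M21 in 93.49% of cases. The members and lists were chosen with earlier results of these data known. By rule, all 10 members, the called genes and up to 3 more of smallest p per list are named. So are the 5 genes most like each profile, listed copies and Rac1 and Rac3. Nkx2-1, Lhx6, Gad2, Dcx, Kdr, Sox2, Car9, Lum, Neurog2, Slc17a7, Hk1, Gpi1, Hk3 and Pklr were added after their values were seen. For the marker lists other than that of MGE neurons, only sums are given. A marker gene is not reported here and was left out of its list.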

Additional observations from a re-analysis of the deposited data

How the results depend on the processing

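Of the 10 members, 0 were called with every alternative test run except DESeq2, which called 6. The enzymes' median log2 fold was 0.12 with library size alone (0.122) and with limma on log2(RPKM + 1) (0.123), and 0.49 (0.495) among the libraries of 29 March. Gapdh had a log2 fold of -0.071 in unique gene reads. Pgam1 had one of -0.062 with library size alone, -0.15 in unique gene reads and -0.066 by RPKM, where it was 0.076 after libraries were set to equal medians. The causes were not tested. The other 7 enzymes and Vegfa kept their direction under all 21 alternatives. With each library left out in turn, the median was 0.26 to 0.39 and 0 members were called. The whole table was less stable: 77 genes were called, but 585 without dmut replicate 2, 22 without dmut replicate 1, 12 without dmut replicate 3, and 2, 2 and 4 without control replicates 1, 2 and 3. It was 780 with library size alone, 0 with the date as a block and 1799 with DESeq2. Library size alone moved the median of all genes to -0.23. Deviations from the group means correlated at 0.110, 0.123 and 0.015 between libraries of the same replicate number. Between libraries of unlike numbers they correlated at -0.136 to 0.016. These values do not settle whether replicate numbers pair the libraries. With the replicate number as a block, 227 genes and 0 members were called, the enzymes' median was 0.33 and the lowest adjusted p among members was 0.0506 (edgeR). At this depth Vegfa, the least read member, had 630 to 1428 reads per library, so the spread between libraries rather than counting limits its precision.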
